A study of Mus musculus with 10 samples.

Results

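The ADAM and ADAMTS proteases examined here were a list of 10 gene names, out of 55486 genes in the count table, drawn up with results of these libraries known, so that counts over it are a description of these genes alone: Adamts1, Adamts4, Adamts5, Adamts9, Adamts15, Adamts2, Adamts12, Adam8, Adam12 and Adam19. Each was read as counts scaled to the total of its library (CPM) in 10 RNA sequencing libraries from mouse mammary fibroblasts and mammary tumor cells. Normal fibroblasts (NFs) came from glands of 8-week-old mTmG reporter mice, pooled over mice, and were sorted by the surface peptidase CD26 into CD26- and CD26+ cells. The mTmG reporter makes every cell red (tdTomato) until Cre recombinase switches it to green (GFP). CD26+ NFs were made green with an adenovirus that carries Cre, and CD26- NFs stayed red. Exposure to the virus and the subset therefore cannot be told apart. Tumor cells were cultured lines from tumors of WapCre;Cdh1F/F mice, a model of invasive lobular carcinoma in which the milk protein promoter Wap drives Cre in mammary epithelium. Before use the NFs had been expanded in dishes coated with collagen. The paper reports that CD26 was quickly lost in cultured CD26+ NFs. CD26- and CD26+ here name the subset at the first sort, kept by color, and not CD26 at harvest.

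Cells were embedded in gels of collagen and basement membrane extract for 7 days. Gel 1 held CD26- and CD26+ NFs in equal parts without tumor cells. Gels 2 and 3 held tumor cells of line 13-MCB-17 and of line 10-SJK-221 alone. Gels 4 and 5 held both NF subsets together with line 13-MCB-17 and line 10-SJK-221. After sorting by color, each gel with NFs gave a CD26- and a CD26+ NF library, and each gel with tumor cells gave a tumor library. NFs alone thus rested on 1 gel, which limits every comparison of co-cultured NFs with NFs alone to 2 gels against 1. Nothing in the labels ties gels to separate cell preparations, so p-values measure only the spread between these libraries. In RNA from sorted pools, fewer cells that express a gene and less RNA per cell cannot be told apart.

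ADAMs (a disintegrin and metalloproteinase) are zinc proteases anchored in the membrane that cut the extracellular parts of other membrane proteins, such as ligands of the EGF receptor family. ADAMTS enzymes lack the membrane anchor, carry thrombospondin repeats and act in the extracellular matrix, where a large branch cuts the proteoglycans aggrecan and versican and another trims procollagens. In most of them activity depends on removal of a prodomain by furin-like convertases, and many are held in check by tissue inhibitors of metalloproteinases, above all Timp3. In the mammary gland, stroma and epithelium remodel matrix with these enzymes during development and in tumors.

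All positions are GRCm38, as in the count table, and lie at the same coordinates in GENCODE M21. In the proteoglycan-cleaving branch, Adamts1 (ENSMUSG00000022893) lies at chr16:85793827-85803113 on the minus strand and Adamts5 (ENSMUSG00000022894) at chr16:85856173-85901828 on the same strand, 53059 bases apart with 1 annotated gene between them. Adamts4 (ENSMUSG00000006403) lies at chr1:171250421-171260637, Adamts9 (ENSMUSG00000030022) at chr6:92772699-92943492 and Adamts15 (ENSMUSG00000033453) at chr9:30899155-30922452. Adamts2 (ENSMUSG00000036545), which removes the amino-terminal propeptide of procollagens, lies at chr11:50602084-50807573, and Adamts12 (ENSMUSG00000047497), which cuts cartilage oligomeric matrix protein, at chr15:11064790-11349231. The membrane-anchored genes are Adam8 (ENSMUSG00000025473, chr7:139978932-139992562), Adam12 (ENSMUSG00000054555, chr7:133883199-134232146) and Adam19 (ENSMUSG00000011256, chr11:46055992-46147343). Genes on the opposite strand overlap 11.99% of the exon length of Adamts9, 10.1% of Adam19, 3.56% of Adamts4 and 0.992% of Adam8. Whether the counting used strand is not given in the sources used here, so a part of these counts may belong to the overlapping genes.

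RefSeq promoter sequences (GRCm38.p6) were at hand for 6 of the 10 genes. The 250 bases before the start are shown for 4 of them because their transcripts took different courses across the gels. Adam19 rose in co-cultured NFs, Adamts1 and Adamts2 fell there, and Adam8 was highest in tumor cells. Capitals mark a match on either strand to an AP-1 site (TGAGTCA), a CRE (TGACGTCA), a TATA box (TATAAA) or an NF-kB site.
Adam19 (chr11:46055734-46055983, plus strand): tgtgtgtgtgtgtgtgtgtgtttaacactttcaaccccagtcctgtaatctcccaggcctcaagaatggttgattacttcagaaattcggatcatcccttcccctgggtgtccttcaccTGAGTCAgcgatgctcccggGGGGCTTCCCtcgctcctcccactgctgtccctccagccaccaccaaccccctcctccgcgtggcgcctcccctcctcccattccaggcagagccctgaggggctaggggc
Adamts1 (chr16:85803114-85803363, minus strand): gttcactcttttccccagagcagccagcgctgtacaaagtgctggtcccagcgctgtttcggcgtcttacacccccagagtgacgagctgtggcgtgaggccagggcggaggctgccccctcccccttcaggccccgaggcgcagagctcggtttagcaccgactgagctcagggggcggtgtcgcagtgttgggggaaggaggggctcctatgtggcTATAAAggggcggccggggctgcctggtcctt
Adamts2 (chr11:50601835-50602084, plus strand): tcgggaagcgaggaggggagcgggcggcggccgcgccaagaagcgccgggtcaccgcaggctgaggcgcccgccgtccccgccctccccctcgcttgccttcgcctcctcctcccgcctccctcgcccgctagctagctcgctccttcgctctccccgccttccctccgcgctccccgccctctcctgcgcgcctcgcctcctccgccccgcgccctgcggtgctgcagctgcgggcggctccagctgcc
Adam8 (chr7:139992563-139992812, minus strand): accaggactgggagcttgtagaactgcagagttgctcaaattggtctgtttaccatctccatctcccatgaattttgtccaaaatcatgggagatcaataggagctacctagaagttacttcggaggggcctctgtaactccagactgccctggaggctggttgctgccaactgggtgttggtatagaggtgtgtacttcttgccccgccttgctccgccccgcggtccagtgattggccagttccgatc
In the Adam19 window the AP-1 match spans bases 131 to 125 before the start and the NF-kB match bases 111 to 102, with no overlap between them. In the Adamts1 window a TATA match spans bases 32 to 27 before the start. No search string occurs in the windows of Adamts2 and Adam8. Among 32851 RefSeq promoter windows of the same length, 4.46% hold the AP-1 string, 3.90% an NF-kB match, 12.4% the TATA string and 1.55% the CRE. RefSeq lists other starts for Adam19, whose windows hold none of these matches. A match describes the letters only.

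Libraries held 14142334 to 18408940 counts, and an observed count of 0 allows up to 3 counts, or 0.163 to 0.212 CPM, counting error only. Lists of 8 fibroblast and 8 epithelial marker genes matched the labelled cell types. Fibroblast markers summed to 74846 and 69497 CPM in CD26- and CD26+ NFs alone, to 37998 and 23317 CPM in gel 4 and 41536 and 29343 CPM in gel 5, and to 38.7 to 177 CPM in the 4 tumor libraries. The sum, most of it collagen transcripts, was lower in co-cultured NFs than in NFs alone and lower in CD26+ than in CD26- NFs of every gel. Single markers differed, since 2 of the 8 (Dcn and Thy1) rose and 4 fell in co-cultured NFs. Their part in the protease differences was not tested. Epithelial markers summed to 3297 to 4513 CPM in tumor libraries, to 0.435 and 0.912 CPM in NFs alone with 6 of 8 markers at 0, and, in the co-cultured NFs, to 104 to 277 CPM with none at 0. Relative to the tumor library of the same gel, Epcam stood at 1.91% to 4.45% in co-cultured NFs, and Col1a1 in co-cultured tumor libraries stood at 0.802% (gel 4) and 0.241% (gel 5) of the level in the NFs. The markers did not give a single share. Krt19 stood at 9.19% to 17.7% in co-cultured NFs and the other 7 epithelial markers at 0.827% to 9.90%. In co-cultured tumor cells Pdgfra, which tumor cells alone also held at 67.7 and 35.6 CPM, stood at 8.94% and 9.92%, and the other 7 fibroblast markers at 0 to 0.802%. The amount of a protease transcript that such shares would carry over, if they stood for RNA of the other cell type, is given below where it matters.

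Every one of the 10 proteases was counted in all 6 NF libraries, whereas Adamts9 had no count in any tumor library, Adamts2 had 1 count in 1 tumor library, and Adamts12 had none in tumor cells alone. The plot of CPM by library shows that NFs alone carried a broad set of these transcripts and tumor cells alone mainly Adamts1, Adamts4, Adam8 and Adam12.

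**Figure D1:**
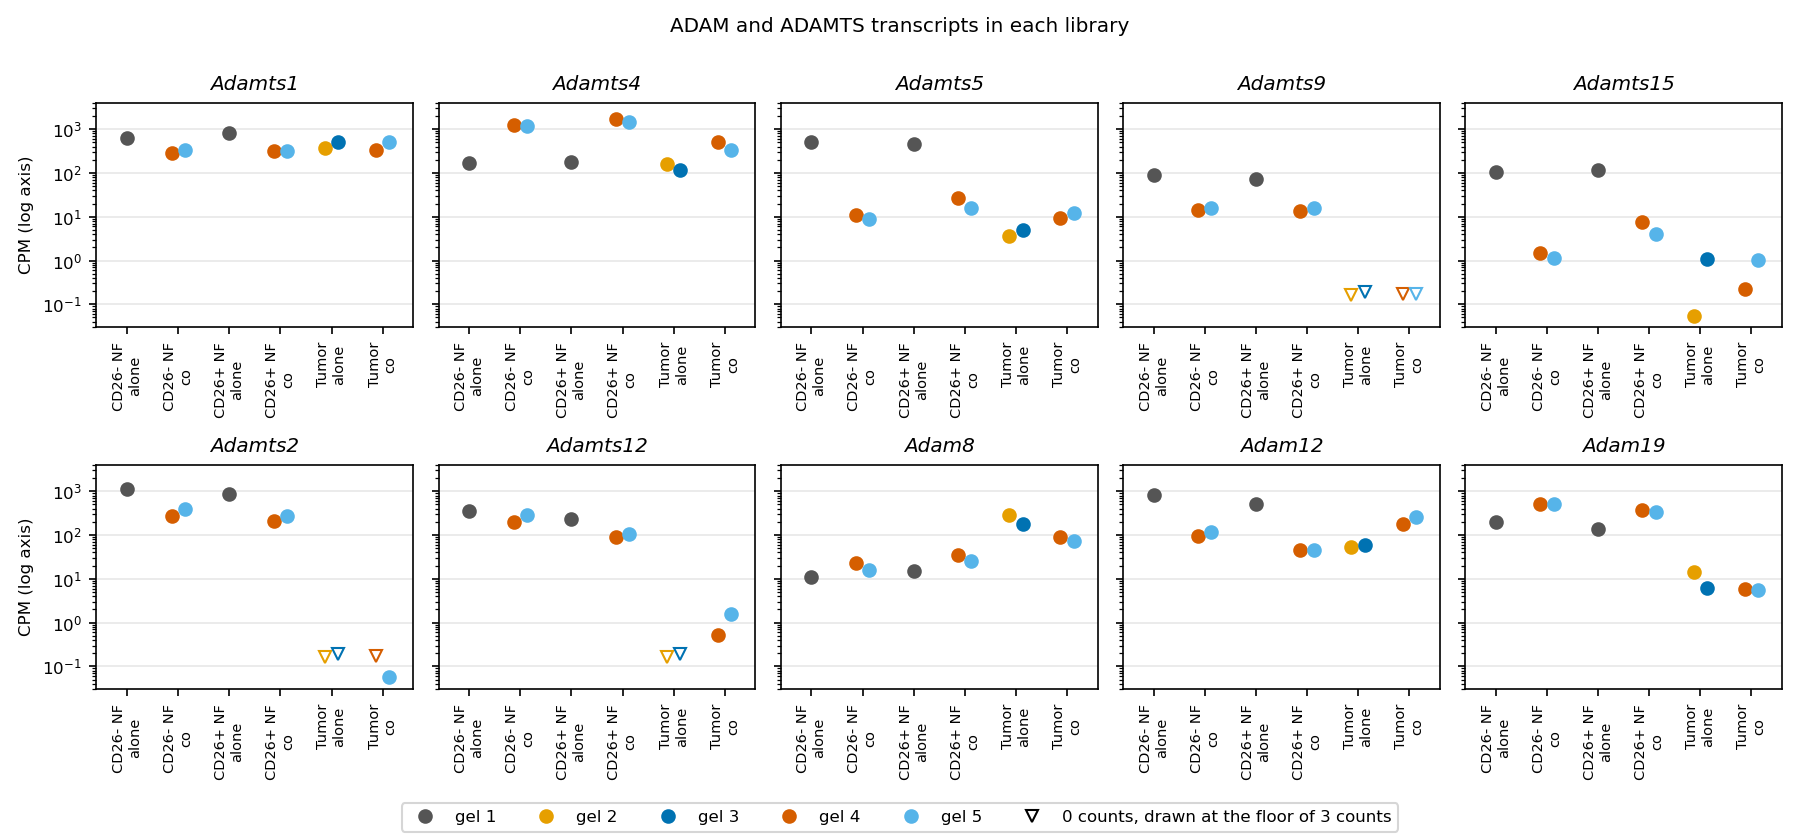
CPM of each gene (log axis) by group, with 1 point per library colored by gel and open triangles for 0 counts drawn at the floor of 3 counts. Adamts4 is at 1171 CPM or more in all 4 co-cultured NF libraries and under 200 CPM in NFs alone, while Adamts5, Adamts9 and Adamts15 show the opposite order.

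Levels of different genes can be compared only per length. Per kb of exon, the 10 transcripts together came to 474 and 428 CPM per kb in CD26- and CD26+ NFs alone and, in co-cultured NFs, to 452 to 518 CPM per kb. The sum therefore stayed within a narrow range while its makeup did not. In NFs alone the leading transcripts were Adamts2 with 24.9% and 21.1% and Adamts1 with 24.8% and 35.1% of the sum (CD26- and CD26+). In co-cultured NFs Adamts4 alone made up 57.7% and 69.3% (gel 4) and 52.7% and 65.4% (gel 5), against 7.56% and 8.72% in NFs alone. Adam19 came next in CD26- NFs, with 16.02% and 15.2%. Tumor cells held less in total, 174 and 166 CPM per kb alone and 206 and 208 CPM per kb in co-culture. Their makeup also differed, with Adam8 at 35.8% and 22.9% of the sum alone and at 9.30% and 7.62% in co-culture.

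**Figure D2:**
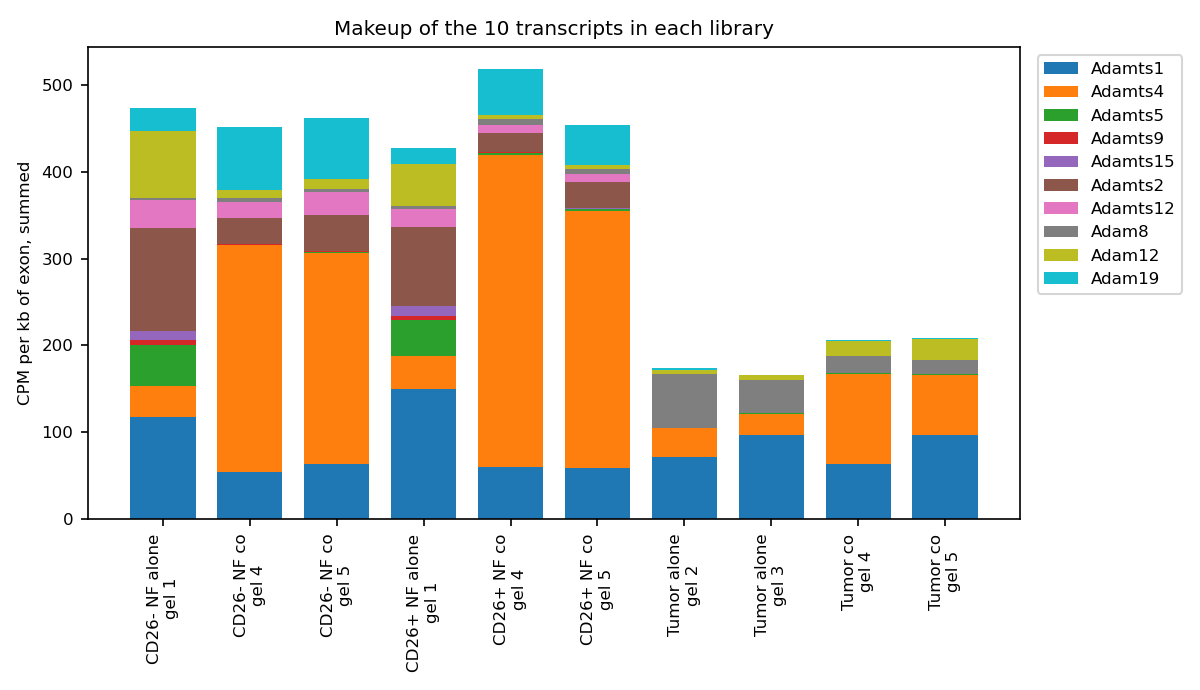
Stacked CPM per kb of exon of the 10 genes in each library. The bars of NFs are similar in height, but Adamts4 takes over 50% of each co-cultured NF bar and under 9% of each bar of NFs alone.

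Comparisons were then tested with edgeR's quasi-likelihood test with Benjamini-Hochberg adjustment over all genes tested, and a call means an adjusted p under 0.05. Between NFs and tumor cells grown alone, 9 of the 10 proteases were called, 8 higher and 1 lower in NFs. The background was high, since 55.5% of 17048 genes were called there, 28.4% higher and 27.1% lower. The median log2 fold change of the 10 was 5.52, against 0.02 over all genes. In the shared gels 9 of 10 were again called, 7 higher and 2 lower in NFs, against 51.8% of all genes (27.7% higher, 24.2% lower), and the median was 2.13 against 0.06. Both medians are the same when genes at 0 in tumor cells are set at their lower bound.

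Co-cultured NFs differed from NFs alone in all 10 proteases, of which 3 rose and 7 fell, while 48.8% of 15013 genes were called (25.9% higher, 22.9% lower). The median log2 change was -1.42, against 0.02 over all genes. This fit counted the 2 libraries of a gel as separate, though culture varied only between gels. Its SEs and p-values, here and below, therefore mix spread within and between gels, and hold none between gels of NFs alone. Taken by subset, 9 of 10 were called in CD26- NFs and 10 of 10 in CD26+ NFs, with 30.8% and 34.2% of 16231 genes called. In each subset the arm grown alone is 1 library, which is assumed to vary like the co-cultured pairs. With all 10 libraries in the fit, 8 of 10 were called in each subset, and Adam8 (adjusted p = 0.140 in CD26- and 0.0922 in CD26+ NFs) and, in CD26+ NFs, Adamts12 (0.0661) were lost. In that fit no gene was called in a single subset without gel 4 or without gel 5, where 1 residual degree of freedom remained (3211 to 4141 genes at an unadjusted p under 0.05). These 3 comparisons share the libraries of gel 1. Among 4 pericyte markers Notch3 alone rose over both subsets, from 28.3 and 68.9 CPM in NFs alone to 125 to 271 CPM, and took the sum from 58.0 and 82.7 CPM to 134 to 285 CPM. In CD26- NFs 1 pericyte marker was called higher and 2 lower, and in CD26+ NFs 1 higher and 0 lower. Endothelial markers summed to 4.35 and 9.76 CPM alone and to 8.06 to 24.4 CPM in co-culture, with 2 of 4 called higher and 1 lower, and none of these 8 markers was at 0 in an NF library. Their part in the protease changes was not tested. In tumor cells, 7 of the 10 had enough counts to be tested, and Adamts2, Adamts9 and Adamts12 did not. Without the low-count filter Adamts12 was called higher in co-cultured tumor cells (adjusted p = 1.10e-05), on 0 counts alone and 9 and 28 counts in gels 4 and 5. Of the 7, 3 rose and 1 fell in co-culture, against 22.3% of 13197 genes called (10.8% higher, 11.5% lower), with a median log2 change of 0.25 against 0.01.

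**Figure D3:**
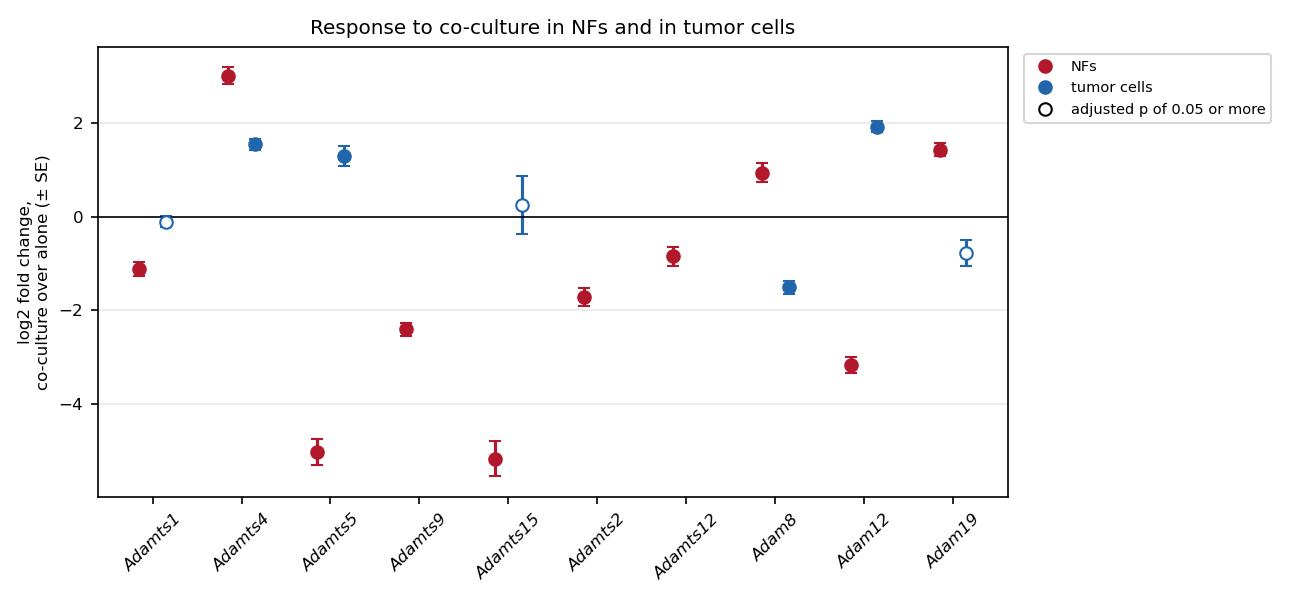
Log2 fold change of co-culture over alone for NFs (red) and tumor cells (blue), with SE bars; open points had an adjusted p of 0.05 or more, and genes without a blue point were not tested in tumor cells. Adam12 and Adamts5 lie below 0 in NFs and above 0 in tumor cells, Adam8 the reverse, and Adamts4 above 0 in both.

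Adamts4, also called aggrecanase-1, was the protease that rose most in NFs beside tumor cells. CD26- NFs had 172 CPM alone and 1253 and 1171 CPM in gels 4 and 5, and CD26+ NFs had 180 CPM alone and 1728 and 1427 CPM in co-culture. The co-cultured libraries thus lay well above those alone in both subsets, by a log2 fold change of 3.02 ± 0.18 (SE), or 8.10-fold, with an adjusted p of 1.71e-06. Tumor cells had 158 and 119 CPM alone (gels 2 and 3) and 500 and 332 CPM in co-culture (gels 4 and 5), a rise of 2.92-fold (log2 1.55 ± 0.11, adjusted p = 9.46e-05). It was 3.16-fold for 13-MCB-17 and 2.79-fold for 10-SJK-221. Grown alone, NFs and tumor cells did not differ in Adamts4 beyond the spread (1.39-fold, log2 0.47 ± 0.25, adjusted p = 0.136), and in shared gels NFs had 3.80-fold more (log2 1.93 ± 0.23, adjusted p = 0.000213). Carry-over at the Epcam share would bring 6.62 to 14.8 CPM into co-cultured NFs, and carry-over at the Col1a1 share 11.95 and 3.14 CPM into tumor cells of gels 4 and 5.

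Adamts1, another proteoglycan-cleaving enzyme, had 623 and 797 CPM in CD26- and CD26+ NFs alone. Beside tumor cells it had 290 and 335 CPM in CD26- NFs, against 319 and 311 CPM in CD26+ NFs. All 4 co-cultured libraries were lower than both libraries alone, and the fall was 2.18-fold (log2 -1.12 ± 0.15, adjusted p = 0.000215). Tumor cells had 381 and 512 CPM alone and 338 and 515 CPM in co-culture, so the lines differed more than the cultures did (log2 change -0.11 ± 0.12, adjusted p = 0.559). A difference between the cell types was called only for cells grown alone. NFs alone exceeded tumor cells alone by 1.73-fold (log2 0.79 ± 0.23, adjusted p = 0.0170), a call that was lost without gel 2 (log2 0.63, adjusted p = 0.0873) and with only those libraries in the fit (adjusted p = 0.0519). In shared gels the difference was -0.24 ± 0.19 on the log2 scale (adjusted p = 0.329).

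Adamts5, also called aggrecanase-2, neighbors Adamts1 and showed a much larger fall in NFs. It had 510 and 454 CPM in CD26- and CD26+ NFs alone. With tumor cells it had 10.9 and 8.81 CPM in CD26- NFs, against 26.7 and 15.6 CPM in CD26+ NFs. The groups lay more than an order of magnitude apart, and the fall was 32.9-fold (log2 -5.04 ± 0.28, adjusted p = 1.25e-06). Tumor cells had low levels that moved the other way, from 3.69 and 4.90 CPM alone to 9.22 and 12.3 CPM, a rise of 2.46-fold (log2 1.30 ± 0.20, adjusted p = 0.00310). The Col1a1 share would carry 0.151 and 0.0294 CPM into these tumor libraries. NFs exceeded tumor cells by 123-fold when grown alone (log2 6.94 ± 0.32, adjusted p = 9.67e-07) and by 1.53-fold in shared gels (log2 0.62 ± 0.23, adjusted p = 0.0495). The latter call was lost without gel 4 (log2 0.19, adjusted p = 0.632), without gel 5 (log2 1.04, adjusted p = 0.0742), with gel as a block (log2 0.60, adjusted p = 0.0668) and with library totals as the scale (log2 0.42, adjusted p = 0.174).

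Adamts15 followed the same course as Adamts5 in NFs. It had 107 and 116 CPM in CD26- and CD26+ NFs alone. Beside tumor cells it had 1.45 and 1.15 CPM in CD26- NFs, against 7.71 and 4.10 CPM in CD26+ NFs, a fall of 36.2-fold over both subsets (log2 -5.18 ± 0.38, adjusted p = 6.00e-06). In tumor cells it was low, with 0.0543 and 1.08 CPM alone and 0.226 and 1.03 CPM in co-culture, line 10-SJK-221 being the higher in both settings. NFs alone exceeded tumor cells alone by 224-fold (log2 7.81 ± 0.77, adjusted p = 5.94e-05), a size that depended on the tumor library, as it was 6.84 on the log2 scale without gel 2 and 10.90 without gel 3. The difference in shared gels was 5.04-fold (log2 2.33 ± 0.71, adjusted p = 0.0238), and the call was lost without gel 4 (log2 1.33, adjusted p = 0.423), without gel 5 (log2 3.99, adjusted p = 0.136) and with DESeq2 (adjusted p = 0.0527).

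Adamts9, whose product acts on versican, was found in NFs only at this depth. CD26- and CD26+ NFs had 91.5 and 71.5 CPM alone, 14.1 and 13.4 CPM in gel 4 and 15.7 and 15.9 CPM in gel 5. The fall was 5.31-fold (log2 -2.41 ± 0.14, adjusted p = 1.94e-06). The subsets lay close together in gels 4 and 5, and in gel 1 CD26+ NFs were 1.28-fold lower. All 4 tumor libraries had 0 counts. Against the floor over the group, NFs had at least 427-fold more alone and at least 86.3-fold more in shared gels.

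Adamts2, the procollagen N-proteinase, was the most abundant member per length in CD26- NFs alone. It had 1102 and 845 CPM in CD26- and CD26+ NFs alone and fell to 273 and 204 CPM in gel 4 and to 395 and 278 CPM in gel 5. The co-cultured libraries did not overlap those alone, and the fall was 3.28-fold (log2 -1.71 ± 0.19, adjusted p = 8.22e-05). Its substrate gene Col1a1 had 18556 and 17368 CPM in NFs alone and ranged from 7882 to 14344 CPM beside tumor cells. Tumor cells alone had 0 Adamts2 counts, which puts NFs at least 5098-fold higher. In shared gels tumor cells had 1 count in all, so the ratio of 10226 has a 95% exact Poisson interval from 1835 to 403919, which covers counting error only. Carry-over at the Col1a1 share would have brought 1.91 and 0.811 CPM into the tumor libraries of gels 4 and 5, where 0 and 0.0570 CPM were measured.

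Adamts12, which together with Adamts7 cuts cartilage oligomeric matrix protein, had 361 and 232 CPM in CD26- and CD26+ NFs alone. Beside tumor cells it had 204 and 290 CPM in CD26- NFs, against 91.5 and 108 CPM in CD26+ NFs. The fall was the smallest of the 7, at 1.80-fold over both subsets (log2 -0.84 ± 0.21, adjusted p = 0.00755). It was 2.27-fold in CD26+ NFs (log2 -1.18 ± 0.25, adjusted p = 0.00232), and in CD26- NFs the change was -0.47 ± 0.25 (adjusted p = 0.164). The change in CD26+ NFs minus that in CD26- NFs was -0.71 ± 0.36 on the log2 scale and was not called. Tumor cells had 0 counts alone, which puts NFs at least 1553-fold higher. In gels 4 and 5 tumor cells had 0.509 and 1.60 CPM, where the difference was 171-fold (log2 7.42 ± 0.46, adjusted p = 1.18e-05, and log2 8.20 without gel 5). The Col1a1 share would carry 1.18 and 0.480 CPM into those libraries, and the lowest marker share, that of Thy1, 0 and 0.0786 CPM. The measured level lay between these values in gel 4 and above both in gel 5.

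Adam12, an enzyme that releases HB-EGF and cuts insulin-like growth factor binding proteins, moved in opposite directions in the cell types. CD26- and CD26+ NFs had 806 and 514 CPM alone, 94.1 and 45.9 CPM in gel 4 and 119 and 44.8 CPM in gel 5. This fall of 8.98-fold left no overlap (log2 -3.17 ± 0.17, adjusted p = 1.21e-06). Tumor cells had 52.2 and 59.7 CPM alone and 182 and 255 CPM in gels 4 and 5, a rise of 3.80-fold (log2 1.92 ± 0.12, adjusted p = 3.92e-05) that was 3.50-fold for 13-MCB-17 and 4.26-fold for 10-SJK-221. The order of the cell types thus turned. NFs had 12.6-fold more than tumor cells when grown alone (log2 3.66 ± 0.22, adjusted p = 3.87e-06) and 2.73-fold less in shared gels (log2 -1.45 ± 0.17, adjusted p = 0.000171). The Epcam share would carry 3.49 to 11.3 CPM of Adam12 into co-cultured NFs and the Krt19 share 17.9 to 45.2 CPM, the last of these in the CD26+ library of gel 5, which had 44.8 CPM in all. In the other direction, the Col1a1 share would carry 0.561 and 0.198 CPM into tumor cells.

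Adam8, known mainly from leukocytes as a sheddase of adhesion receptors, was the 1 protease lower in NFs than in tumor cells in both settings. Tumor cells had 289 and 177 CPM alone and 88.8 and 73.6 CPM in co-culture, a fall of 2.85-fold (log2 -1.51 ± 0.13, adjusted p = 0.000210) seen in line 13-MCB-17 (3.26-fold) and line 10-SJK-221 (2.40-fold). NFs had 11.1 and 15.3 CPM alone (CD26- and CD26+), 23.6 and 35.0 CPM in gel 4 and 15.6 and 25.5 CPM in gel 5. They rose by 1.93-fold (log2 0.95 ± 0.20, adjusted p = 0.00395), with every co-cultured library above the one of its subset alone. The Epcam share would carry 1.47 to 3.27 CPM into co-cultured NFs and the Krt19 share 6.76 to 13.04 CPM. In CD26- NFs the rise of 1.84-fold (adjusted p = 0.0320) was lost without the low-count filter (adjusted p = 0.0708) and with DESeq2 (adjusted p = 0.0569). The gap between NFs and tumor cells was -4.04 ± 0.33 on the log2 scale alone (adjusted p = 1.84e-05) and -1.55 ± 0.24 in shared gels (adjusted p = 0.000920), where it was lost without gel 4 (-1.63, adjusted p = 0.0621) or gel 5 (-1.47, adjusted p = 0.0781).

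Among 6 immune markers, Cd68 moved in the same direction as Adam8, and Csf1r was called higher in co-culture in both cell types. The sum of the 6 was 303 and 102 CPM in tumor cells alone, 94.5 and 50.8 CPM in co-cultured tumor cells, 6.02 and 12.5 CPM in NFs alone and, in co-culture, 33.0 to 66.0 CPM in NFs. Most of it was Cd68, a lysosomal protein gene, at 299 and 93.1 CPM in tumor cells alone. Ptprc, the pan-leukocyte marker CD45, had 0 to 0.127 CPM in every library, and 1 or 2 of the 6 markers were at 0 in each. The part of immune cells in the Adam8 values was not tested.

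Adam19, which sheds neuregulins, rose in NFs and stayed low in tumor cells. CD26- NFs had 194 CPM alone and 515 and 499 CPM in gels 4 and 5, and CD26+ NFs had 134 CPM alone and 374 and 328 CPM in co-culture. No co-cultured library overlapped with those alone, and the rise was 2.70-fold (log2 1.43 ± 0.14, adjusted p = 2.95e-05). Tumor cells had 14.3 and 6.04 CPM alone and 5.94 and 5.42 CPM in co-culture, a change of -0.78 ± 0.28 on the log2 scale (adjusted p = 0.0842), which lay mainly in line 13-MCB-17 and passed without the low-count filter (adjusted p = 0.00226). The Col1a1 share would carry 3.56 and 0.998 CPM into the tumor libraries of gels 4 and 5, and the Thy1 share 0 and 0.164 CPM. NFs exceeded tumor cells by 17.1-fold alone (log2 4.10 ± 0.37, adjusted p = 3.61e-05, and log2 4.91 without gel 2) and by 85.1-fold in shared gels (log2 6.41 ± 0.41, adjusted p = 5.42e-06).

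The 4 calls in tumor cells rest on a fit of 4 libraries with the line as a term, which left 1 residual degree of freedom. Without that term none of 13197 genes was called (2207 at an unadjusted p under 0.05), and the adjusted p was 0.126 for Adamts4, 0.141 for Adamts5, 0.131 for Adam8 and 0.0775 for Adam12. The direction was the same in each line for all 4.

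After these values were seen, the difference between the response of NFs and that of tumor cells was tested in the fit of all 10 libraries. The response differed for 8 of the 10 proteases, against 20.2% of 17048 genes. Without gel 4 or without gel 5 no gene at all was called (3262 and 3468 genes at an unadjusted p under 0.05), with 1 residual degree of freedom left in the fit. Adam12 responded 34.4-fold lower in NFs than in tumor cells (log2 -5.10 ± 0.28, adjusted p = 7.01e-05), and the adjusted p was 0.0562 without gel 4 and 0.0512 without gel 5. Adam8 responded 5.63-fold higher (log2 2.49 ± 0.40, adjusted p = 0.00410), with 0.152 and 0.128 without these gels.

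The second question of the design was whether CD26+ and CD26- NFs of the same gel differ. Over the 3 gels with NFs, 3 of 10 proteases were called, all lower in CD26+ NFs, against 7.53% of 15013 genes (3.93% higher, 3.6% lower), and the median log2 difference was -0.17 against 0.00 over all genes. In co-culture alone 5 of 10 were called, 2 higher and 3 lower, against 6.01% of 16231 genes (3.48% higher, 2.53% lower), with a median of -0.18 against 0.01. Neither fit paired the libraries of a gel. With gel as a block, 4 of 10 were called over the 3 gels, beside 1331 of 15013 genes. In co-culture the block gave 7 of 10, beside 2407 of 14410 genes, in a fit with 1 residual degree of freedom. With all 10 libraries in the fit only 83 genes and, of the proteases, Adam12 (log2 -1.41, adjusted p = 0.0309) were called in co-culture, and the adjusted p was 0.117 for Adamts12, 0.369 for Adam19, 0.234 for Adamts15 and 0.165 for Adamts5. In the same fit no gene was called without gel 4 (973 at an unadjusted p under 0.05) or without gel 5 (545), while all 5 proteases had the same direction. Library totals in place of TMM factors shift the median of all genes by 0.15 over the 3 gels and by 0.17 in co-culture, so small differences between subsets depend on the scale. The gel ratios below use library totals, and the fold changes use TMM factors.

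**Figure D4:**
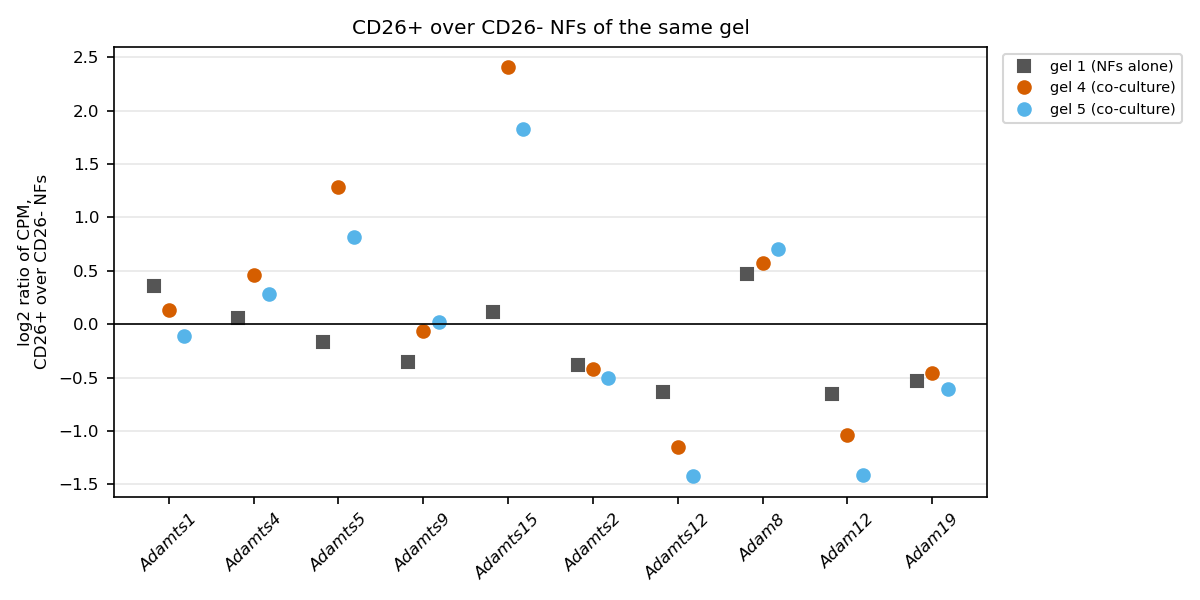
Log2 ratio of CPM, CD26+ over CD26- NFs of the same gel, for gel 1 (squares, NFs alone) and gels 4 and 5 (circles, co-culture). Adamts12, Adam12, Adam19 and Adamts2 lie below 0 in all 3 gels, Adam8 above 0 in all 3, and Adamts15 near 0 alone but at 1.83 and 2.41 in co-culture.

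Adamts12 was lower in CD26+ NFs by 1.55-fold in gel 1, 2.23-fold in gel 4 and 2.69-fold in gel 5, and by 2.37-fold in the fit (log2 -1.24 ± 0.20, adjusted p = 0.00989). Adam12 was lower by 1.57-fold, 2.05-fold and 2.67-fold in the same gels, and by 2.29-fold in the fit (log2 -1.19 ± 0.17, adjusted p = 0.00633). For Adam19 the gel ratios were 1.44-fold, 1.38-fold and 1.52-fold lower, and the fit gave 1.61-fold (log2 -0.69 ± 0.12, adjusted p = 0.0128). All 3 therefore pointed the same way in every gel. Their calls were lost without gel 5 (adjusted p = 0.125 for Adamts12 at log2 -1.03, 0.130 for Adam12 at -0.97 and 0.227 for Adam19 at -0.63). In co-culture alone, the fold differences were 2.81, 2.67 and 1.63 (adjusted p = 0.00101, 0.000731 and 0.0255), and that of Adam19 was lost with library totals (log2 -0.53, adjusted p = 0.0672). Adamts2 was also lower in each gel, by 1.30-fold, 1.34-fold and 1.42-fold, which did not pass (log2 -0.60 ± 0.19, adjusted p = 0.0853) unless gel entered as a block (log2 -0.59, adjusted p = 0.0247) or DESeq2 was used (adjusted p = 0.0358).

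Adamts15 and Adamts5, low in all co-cultured NFs, were higher in the CD26+ than in the CD26- library of gels 4 and 5. For Adamts15 the CD26+ library exceeded the CD26- library by 1.08-fold in gel 1, 5.30-fold in gel 4 and 3.56-fold in gel 5. In co-culture the difference was 4.02-fold (log2 2.01 ± 0.32, adjusted p = 0.00204). Adamts5 was 1.12-fold lower in CD26+ NFs in gel 1, and 2.44-fold and 1.77-fold higher in gels 4 and 5, a co-culture difference of 1.90-fold (log2 0.93 ± 0.24, adjusted p = 0.0346) that was lost without the low-count filter (adjusted p = 0.0889). Over the 3 gels both missed the threshold (adjusted p = 0.163 and 0.318), and without gel 1 both passed it (0.0111 and 0.0464). In CD26- NFs the fall from alone to co-culture was 78.1-fold for Adamts15 and 49.6-fold for Adamts5, and in CD26+ NFs it was 19.0-fold and 21.0-fold.

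Whether the subsets responded differently to tumor cells was tested as an interaction of subset and culture. With edgeR, TMM factors and no gel block, it called 59 of 16231 genes (0.364%) and none of the 10 proteases. Of the proteases, 2 were at an unadjusted p under 0.05. Adamts15 had an interaction of 2.04 ± 0.44 on the log2 scale (adjusted p = 0.0793) and Adamts5 of 1.24 ± 0.38 (adjusted p = 0.300). With gel as a block, Adamts15 (log2 2.01, adjusted p = 1.35e-05) and Adamts5 (log2 1.21, adjusted p = 0.00891) were called, and Adamts15 was also called with DESeq2 (adjusted p = 0.0201) and with library totals (adjusted p = 0.0254). With all 10 libraries in the fit no gene was called (918 at an unadjusted p under 0.05). Each side of the alone arm is 1 library, and the fit with gel as a block left 1 residual degree of freedom.

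Adam8 was higher in CD26+ NFs in every gel, by 1.38-fold, 1.49-fold and 1.63-fold, which did not pass over the 3 gels (log2 0.43 ± 0.18, adjusted p = 0.184) or in co-culture (log2 0.46 ± 0.22, adjusted p = 0.267) and passed in co-culture with gel as a block (log2 0.47, adjusted p = 0.0480). Blocking also brought Adamts2 past the threshold in co-culture (log2 -0.63, adjusted p = 0.00310). Adamts4 had gel ratios of 1.04-fold, 1.38-fold and 1.22-fold higher in CD26+ NFs (fit log2 0.12 ± 0.14, adjusted p = 0.649). Adamts9 differed by at most 1.28-fold in a gel (fit log2 -0.30 ± 0.14, adjusted p = 0.238). For Adamts1 the fitted difference was -0.03 ± 0.14 (adjusted p = 0.911), and its sign turned with library totals (0.12) and without gel 5 (0.11). Epithelial markers summed in gels 4 and 5 to 153 and 277 CPM in CD26+ and to 104 and 129 CPM in CD26- libraries, and were thus higher in the CD26+ library of both gels, with 1 of 8 called. Endothelial markers summed to 9.76 against 4.35 CPM (CD26+ against CD26-) in gel 1, 24.4 against 10.1 CPM in gel 4 and 14.8 against 8.06 CPM in gel 5, with 2 of 4 called higher in co-culture. Of the 8 fibroblast markers 4 were called lower in CD26+ NFs in co-culture and none higher, and of the 4 pericyte markers 1 was higher and 1 lower. The part of these markers in the subset differences was not tested.

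The wider pathway was read through lists chosen with earlier results of these data known. Among 11 further Adamts genes, 9 were tested in NFs, of which 5 rose and 3 fell beside tumor cells, with a median log2 change of 1.34 against 0.02 over all genes, of which 25.9% rose and 22.9% fell. Adamts14, a procollagen N-proteinase like Adamts2, rose 5.28-fold in co-cultured NFs (log2 2.40 ± 0.17, adjusted p = 4.82e-06), from 21.5 and 24.3 CPM to 98.8 to 126 CPM, while Adamts2 fell. Adamts7, the partner of Adamts12 in cartilage oligomeric matrix protein cleavage, rose 2.62-fold (log2 1.39 ± 0.14, adjusted p = 5.06e-05) while Adamts12 fell. Adamts16 fell 9.05-fold (log2 -3.18 ± 0.27, adjusted p = 1.47e-05) and Adamts3 4.40-fold (log2 -2.14 ± 0.36, adjusted p = 0.00108). Of these further genes, 4 were tested in tumor cells and 3 rose, against 10.8% of all genes, among them Adamts10 by 5.05-fold (log2 2.34 ± 0.29, adjusted p = 0.00109).

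Other lists were mixed, beside 48.8% of all genes called in co-cultured NFs (25.9% higher, 22.9% lower) and an overall median of 0.02. Of 7 ADAMTS-like genes, which encode matrix proteins without a protease domain, 3 rose and 2 fell in co-cultured NFs, with a median of 0.52. Of 9 further Adam genes 8 were tested, and 1 rose and 3 fell, with a median of -0.08, a share called close to that of all genes. Adam33 rose 3.64-fold (log2 1.86 ± 0.16, adjusted p = 1.48e-05), Adam23, a member without protease activity, fell 2.63-fold (log2 -1.40 ± 0.11, adjusted p = 1.20e-05), and the widely expressed sheddases Adam10 and Adam17 were not called in NFs. In tumor cells Adam10 fell by 0.37 on the log2 scale (SE 0.10, adjusted p = 0.0388). Adam17 had 112 to 156 CPM in all libraries.

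Of 15 substrate genes 13 were tested in NFs, and 6 rose and 6 fell in co-culture, against 25.9% and 22.9% of all genes, with a median of 1.00 against 0.02. Vcan, the proteoglycan versican that Adamts1, Adamts4, Adamts5 and Adamts9 cut, had 1821 and 1458 CPM in CD26- and CD26+ NFs alone and 311, 286, 462 and 248 CPM in co-culture, a fall of 4.90-fold (log2 -2.29 ± 0.18, adjusted p = 1.11e-05). In tumor cells it depended on the line, with 137 and 199 CPM in 13-MCB-17 and 3.24 and 5.08 CPM in 10-SJK-221. Comp, the substrate of Adamts12, fell 26.1-fold in NFs (log2 -4.70 ± 0.44, adjusted p = 2.87e-05) from a level of 21.4 and 15.02 CPM. The list held 4 ligands of the EGF receptor family that ADAMs shed, and all 4 rose in NFs, Areg by 41.9-fold (log2 5.39 ± 0.33, adjusted p = 1.98e-06), Hbegf by 10.4-fold (log2 3.38 ± 0.26, adjusted p = 8.97e-06), Tgfa by 3.10-fold (log2 1.63 ± 0.58, adjusted p = 0.0407) and Nrg1, the neuregulin gene, by 2.58-fold (log2 1.37 ± 0.30, adjusted p = 0.00468). Nrg1 had 20.3 and 22.1 CPM in CD26- and CD26+ NFs alone, 45.9 and 101 CPM in gel 4 and 27.3 and 58.1 CPM in gel 5. In tumor cells Nrg1 fell 1.87-fold (log2 -0.90 ± 0.11, adjusted p = 0.000877), from 108 and 80.9 CPM to 54.4 and 47.7 CPM. The other 3 ligands were abundant in tumor cells, at 98.2 CPM or more in each library, and the part of carried-over tumor RNA in the rises was not tested.

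Inhibitor and processing genes numbered 11, of which 10 were tested in NFs and 3 rose and 3 fell, against 25.9% and 22.9% of all genes, with a median of -0.02 against 0.02. Timp3 had 787 and 316 CPM in CD26- and CD26+ NFs alone, 660 and 336 CPM in gel 4 and 734 and 295 CPM in gel 5. It did not change with culture in NFs beyond the spread (log2 -0.04 ± 0.14, adjusted p = 0.828), was 2.57-fold lower in CD26+ NFs over the 3 gels (log2 -1.36 ± 0.13, adjusted p = 0.00125), and fell 5.26-fold in tumor cells (log2 -2.40 ± 0.19, adjusted p = 0.000141), from 107 and 69.8 CPM to 15.5 and 18.02 CPM. Timp1 rose 2.32-fold in NFs (log2 1.21 ± 0.25, adjusted p = 0.00292) and 3.25-fold in tumor cells (log2 1.70 ± 0.10, adjusted p = 3.87e-05). Furin, which activates many of these proteases though not Adam8, rose by 1.73-fold in NFs (log2 0.79 ± 0.13, adjusted p = 0.000756) and 1.70-fold in tumor cells (log2 0.77 ± 0.11, adjusted p = 0.00168). Lrp1, the receptor that clears Adamts4 and Adamts5 from the matrix, had 3870 to 5150 CPM in NFs and 1742 to 2528 CPM in tumor cells, and passed no test of co-culture (adjusted p = 0.296 in NFs and 0.116 in tumor cells).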

How the data were processed

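The authors deposited raw read counts per gene, without normalization, in 1 table of all 10 libraries (stranded mRNA libraries, HiSeq and NovaSeq instruments). The submitters' processing notes name HISAT2 2.2.1 and GRCm38. Program and strand setting of the counting, and the release of the annotation, are not given in the sources used here. Of the gene IDs, 99.53% were in GENCODE M21 (GRCm38), 99.35% of them at the same position, and 1 line without an ID held 0 counts. Groups came from the labels. A further floxed allele of the tumor model is not reported here. Counts were tested with edgeR 4.0.16 in R 4.3.3 (TMM, filterByExpr, quasi-likelihood F test, Benjamini-Hochberg over all genes tested, threshold 0.05) in fits of the 10 libraries in 6 groups, of the 6 NF libraries, or of the 4 tumor libraries with line as a term. SEs are the absolute log2 fold change over the square root of F. The tests were checked on simulated counts. Tables and figures were made with Python 3.11.15. Floors are 3 counts, at 14142334 to 18408940 counts per library, and intervals cover counting error only. Alternatives were RLE scaling, no low-count filter, 1 CPM in 2 libraries, DESeq2 1.42.0, an absolute log2 fold change above 2, only the libraries compared, gels left out, a replicate block, no line term and, added after seeing the data, library totals and all 10 libraries in the fit.

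The gel number marks cells of the same gel, per the labels, so it pairs libraries. Deviations of gels 4 and 5 from group means correlated at 0.105 (CD26- and CD26+ NFs), 0.104 (CD26- NFs and tumor cells) and 0.0667 (CD26+ NFs and tumor cells) over 16838 genes. The members and lists were chosen with earlier results of these data known. All 10 members are named. Of the other lists, genes named were called with a mean of at least 1 CPM, at most 4 per list and comparison by absolute log2 fold change, with Timp3, Vcan, Furin and Lrp1 whatever their p, and Col1a1 and Epcam as checks. Adam10, Adam17, Nrg1, Tgfa and marker genes other than Col1a1 and Epcam were named after their values were seen.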

Additional observations from a re-analysis of the deposited data

Results flagged for a closer look

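For 8 of the 10 proteases the response to co-culture differed between NFs and tumor cells by a test of the difference itself (edgeR, adjusted over 17048 genes, of which 20.2% were called), given here as the log2 change in NFs minus that in tumor cells. The comparison was added after the values were seen. It was 1.46 for Adamts4, which rose in both cell types, and 2.31 for Adam19 (1.505 without gel 2). For Adam8 it was 2.49 and for Adam12 -5.10, and these genes moved in opposite directions in NFs and tumor cells, as did Adamts5 at -6.33. For Adamts15 it was -5.47, with only 1 and 4 counts in the tumor libraries of line 13-MCB-17, and it ran from -8.56 without gel 3 to -3.83 without gel 5. For Adamts1 it was -1.03, and its adjusted p of 0.0424 became 0.119 without gel 2. For Adamts12 the fitted value was -7.83, which depends on the prior count because tumor cells alone had no counts and is no bound. All 8 calls were lost without gel 4 and without gel 5, where adjusted p-values ranged from 0.0512 (Adam12 and Adamts5 without gel 5) to 0.404 (Adamts15 without gel 5).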

How the results depend on the processing

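Of 802 values of single proteases under alternatives, 691 kept their direction and their side of the threshold, 95 lost a call, 11 gained one and 5 turned direction, namely Adam19 in the interaction without gel 5 (0.059, and -0.13 without gel 4) and Adamts1 in the others: between NFs and tumor cells in shared gels without gel 5 (0.00376, and -0.42 without gel 4), between subsets over 3 gels with library totals (0.12) and without gel 5 (0.11, range over gels left out -0.16 to 0.11), and between subsets in co-culture with library totals (0.0085). With calls limited to an absolute log2 fold change above 2, there were 4899 genes for NFs against tumor cells alone, 4000 in shared gels (5 proteases), 192 for the subsets over 3 gels (0), 223 in co-culture (1), 2047 for co-cultured NFs (5), 1857 in CD26- NFs (5), 2161 in CD26+ NFs (5), 418 in tumor cells (0) and 1629 for the difference in response. Leaving out a gel gave 2614 to 3018 genes in shared gels and 6 proteases each time, 17 to 1299 genes and 0 to 5 proteases for the subsets over 3 gels, and 0 to 3358 genes and 0 to 8 proteases for the difference in response. For the subsets in co-culture the count was 603 without the low-count filter and 2407 with the replicate block. For the interaction it was 18 without the filter, 38 with the filter of 1 CPM, 97 with DESeq2 (1 protease), 123 with library totals (1) and 395 with the replicate block (2). In tumor cells it was 1574 with DESeq2 and, without the line term, 0 genes and 0 proteases (2207 genes at an unadjusted p under 0.05). The cause of these shifts was not tested. The replicate block changed no call other than those given in the report. For the subsets in co-culture and for the interaction its fit left 1 residual degree of freedom. No paired analysis was possible for co-culture against alone or for cells grown alone, because each gel held 1 culture. For the subsets in co-culture, the single-subset responses and the interaction, the 6 NF libraries keep no residual degree of freedom without gel 4 or gel 5, so all 10 libraries entered the fit, where 1 remained and the lone library of a group is assumed to vary like the others. Leaving out either gel then gave 0 genes and 0 proteases in each (325 to 4141 genes at an unadjusted p under 0.05). That fit with every gel gave 83 genes and 1 protease for the subsets in co-culture and 0 genes for the interaction. Without gel 1, the subsets in co-culture gave 977 genes and 5 proteases. Depth limits Adamts9, Adamts2, Adamts12 and Adamts15 in tumor cells.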
